A study of Mus musculus with 17 samples.

Results

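The contrast described here set skeletal stem cells (SSCs) against osteoprogenitor cells (OPCs) within mice that carried 1 mutant and 1 normal copy of Cxcr4 (genotype Cxcr4+/1013). Its members are the libraries so labelled, 3 of SSCs and 3 of OPCs, with no measured value in the rule, and they are 6 of the 17 bulk RNA-seq libraries of the series. The other libraries came from the same 2 cell types of wild-type (WT) and Cxcr4 1013/1013 mice, and were used only to ask whether the cell-type difference depended on genotype. All mice were female littermates of 8 to 12 weeks of age, and each library was made from a pool of sorted cells of 3 mice. Cells were released with collagenase from the bone fraction of femur, tibia and hip, and non-hematopoietic, non-endothelial cells (CD45-Ter119-CD31-) were sorted as SSCs when Sca-1+CD51+PDGFRα+ and as OPCs when Sca-1-CD51+PDGFRα+/-. The 1013 allele is a knock-in in every cell of the mouse, so both groups carried it, and the sort gates, not a reporter or a clone, define the groups.

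SSCs are the least committed stromal cells of bone, can give rise to bone, cartilage and fat lineages, and lie around vessels and in the periosteum. OPCs are further along the path to the osteoblast, the cell that secretes type I collagen and the proteins that let this matrix mineralize. CXCR4 is the receptor for the chemokine CXCL12, which stromal cells secrete and which holds blood stem cells in the marrow. The 1013 allele removes the end of the receptor's intracellular tail, which is where desensitization starts, and its human counterpart causes WHIM syndrome, an immunodeficiency with gain of CXCR4 function.

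The libraries held 64099849, 66464671 and 92683497 counts assigned to genes in OPC replicates 1 to 3, and 49628208, 48626392 and 49160847 in SSC replicates 1 to 3. Levels are given as CPM, counts relative to the scaled library size (TMM factors) and not to gene length, and are listed in the order of replicates 1 to 3 in each group. A count of 3 was worth 0.0417 to 0.0570 CPM. Type I collagen (Col1a1 and Col1a2) took 25.6, 38.7 and 33.3% of the counts in OPCs and 0.563, 0.596 and 1.17% in SSCs. Cytosolic ribosomal protein genes took 0.290, 0.212 and 0.200% in OPCs and 1.03, 0.884 and 0.865% in SSCs. Both shares separated the groups completely, which for 3 against 3 libraries gives an exact two-sided permutation p of 0.1, the smallest this design allows. Reads that the counter could not give to a single gene were 1.92 to 2.62% in OPCs and 3.44 to 3.58% in SSCs, and reads with more than 1 alignment were 7.75 to 10.4% and 5.76 to 7.60% (both exact permutation p = 0.1). The number of genes detected after thinning to equal total counts, of which type I collagen left fewer for other genes in OPCs, overlapped between the groups, at 18460 to 19933 in OPCs and 17783 to 19214 in SSCs.

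Of 15080 genes tested, 2724 (18.1%) differed between the cell types, which was set as a Benjamini-Hochberg adjusted p under 0.05 in edgeR's quasi-likelihood test and a change of at least 1.5-fold. Of these, 1444 (9.58% of the genes tested) were higher in SSCs and 1280 (8.49%) were lower. The 3 SSC values lay outside the range of the 3 OPC values for each of the 2724 genes. Selection by adjusted p favours such genes, so this separation is not separate support. The share over all genes tested is not given. Differences were large: the median absolute log2 fold change of the called genes was 2.18, and 764 genes were more than 4-fold higher and 703 more than 4-fold lower in SSCs. At least 10 counts in each SSC library and 0 in each OPC library were found for 109 genes, and the reverse for 160 genes. Scaling by library totals alone moved the median of all genes by 0.41 and the share of calls that were higher in SSCs from 53.0% to 73.5% (2194 higher and 792 lower), so the directions below are relative to the TMM scale. The calls rested on few libraries: 1005 of the 2724 genes were called in each of the 6 fits that left out 1 library, 231 in none of them, and the sign turned for 0. The count of calls fell to 1290 without OPC replicate 2, 1538 without OPC replicate 3, 1384 without SSC replicate 1, 1529 without SSC replicate 2 and 1678 without SSC replicate 3. Since each library is a bulk sample, fewer cells of a kind and less RNA per cell cannot be told apart for any gene below.

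**Figure D1:**
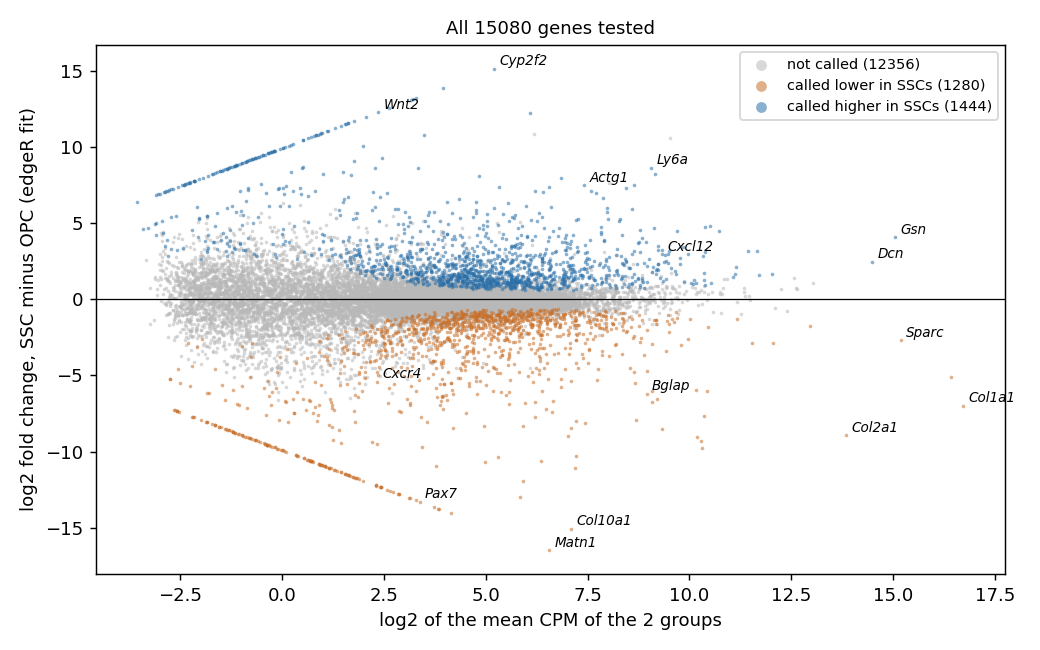
Log2 fold change (SSC minus OPC, vertical axis) against the log2 of the mean CPM (horizontal axis) for the 15080 genes tested in Cxcr4+/1013 cells, with 1444 genes called higher (blue) and 1280 called lower (orange) in SSCs. The 2 straight diagonal rows are genes with 0 counts in 1 of the groups, whose fitted change depends on the small count added by the fit; the collagens Col1a1 and Col2a1 lie at the lower right, and Gsn and Dcn at the upper right.

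The sorting markers were checked first. Ly6a (chromosome 15, 74994877-74998031, minus strand, mm10), which encodes Sca-1, had 5.99, 1.18 and 0.875 CPM in OPCs and 1342, 877 and 965 CPM in SSCs. Pdgfra had 78.0, 146 and 102 CPM in OPCs and 379.6, 359 and 509 CPM in SSCs. Both genes followed the gates, which chose the cells by these proteins, and so are a check on the labels and not a result. Itgav, which encodes CD51 and served in both gates, had 49.99, 53.5 and 45.9 CPM in OPCs and 17.5, 35.3 and 30.4 CPM in SSCs (log2 fold change -0.84 ± 0.28 (SE), adjusted p = 0.0810). Of the proteins that excluded cells, CD45 (Ptprc) was at 2.78 CPM or lower in each of the 6 libraries, and CD31 (Pecam1) at 12.9, 0 and 0.0139 CPM in OPCs and 34.4, 2.47 and 1.40 CPM in SSCs.

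Cxcr4 itself (chromosome 1, 128588199-128592293, minus strand, mm10) was lower in SSCs. It had 19.0, 6.08 and 4.39 CPM in OPCs and 0.202, 0.302 and 0.170 CPM in SSCs, a log2 fold change of -5.44 ± 0.78 and 43.5-fold (adjusted p = 0.00582). Counts per gene do not separate the truncated from the normal transcript, so they do not check the genotype. Its ligand moved the other way: Cxcl12 (chromosome 6, 117168535-117181367, plus strand) had 309, 107 and 29.7 CPM in OPCs and 1612, 815 and 1007 CPM in SSCs (2.95 ± 0.81, adjusted p = 0.0462). The OPC libraries spread widely for Cxcl12, and its call was lost without any library other than OPC replicate 1, with log2 fold changes of 2.46 to 4.05. Ackr3, the scavenging receptor for CXCL12, had 258, 161 and 152 CPM in OPCs and 536, 764 and 533 CPM in SSCs (1.68 ± 0.30, adjusted p = 0.0115, a call lost without OPC replicate 2). Grk5, a kinase of activated receptors, was also higher in SSCs (2.34, adjusted p = 0.0186, lost without OPC replicate 2 or any SSC library). These were 4 of the 11 tested genes of the CXCR4 axis, with 3 higher, 1 lower and a median of 0.10 (-0.05 without OPC replicate 2) beside -0.00 over all genes. The other kinases and arrestins did not pass the test, among them Grk6 with 39.0, 32.6 and 38.9 CPM in OPCs and 34.4, 29.3 and 49.6 CPM in SSCs (0.04 ± 0.24, adjusted p = 0.933).

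**Figure D2:**
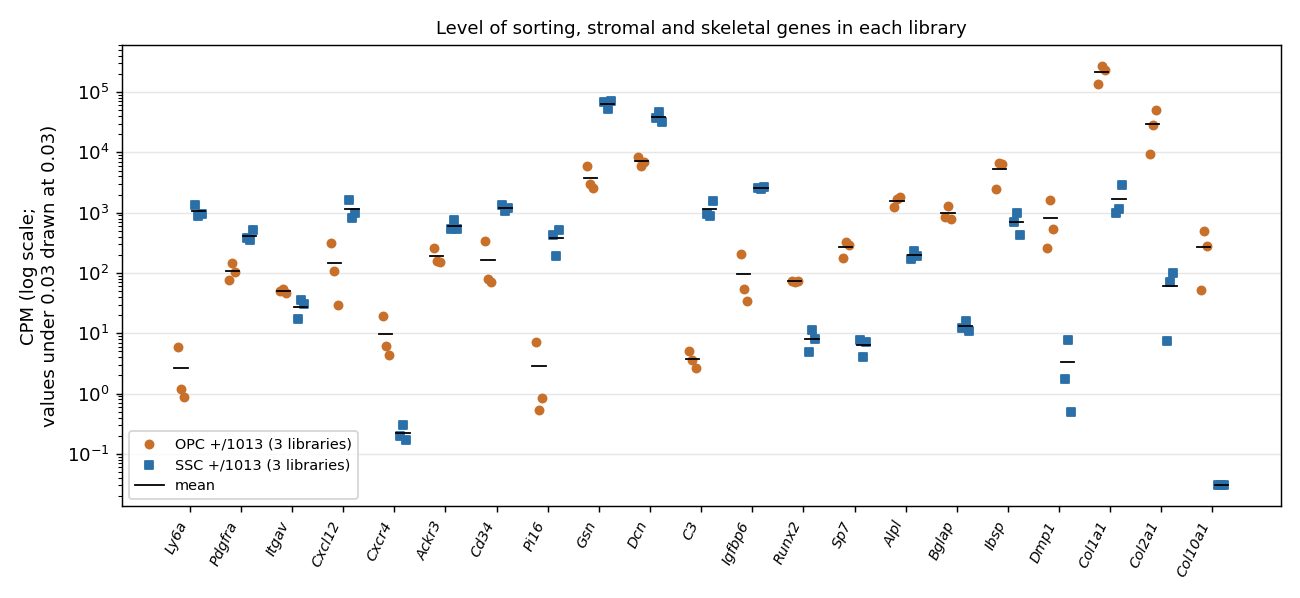
CPM on a log axis for 21 genes of the sort, the CXCR4 axis, stroma, bone and cartilage, with 1 point for each of the 3 OPC (orange circles) and 3 SSC (blue squares) Cxcr4+/1013 libraries and a black line at the mean; values under 0.03 CPM are drawn at 0.03. The 2 groups are apart for each gene shown, Itgav included, although the change of Itgav did not pass the test.

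The transcription factors that drive bone formation were lower in SSCs. Of 12 tested, 6 were called lower and 0 higher, with a median log2 fold change of -1.72. Runx2, the factor that commits cells to the osteoblast lineage, had 74.7, 70.1 and 72.6 CPM in OPCs and 4.91, 11.5 and 8.04 CPM in SSCs (-3.15 ± 0.33, adjusted p = 0.00202). Sp7, which acts after Runx2, had 180.0, 328 and 287 CPM in OPCs and 7.89, 4.08 and 7.24 CPM in SSCs (-5.37 ± 0.40, adjusted p = 6.04e-04). Dlx3, Dlx5 and Mef2c, further factors of the lineage, were lower too, and Dlx5 (-1.04 ± 0.23) lost its call without 4 of the 6 libraries.

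Genes for the proteins of bone matrix were lower as well, with 8 of 12 lower and 1 higher (median -2.78, and -2.24 over those without a near-identical copy). Bglap (chromosome 3, 88383501-88384464, minus strand), which encodes osteocalcin, had 861, 1268 and 797 CPM in OPCs and 12.1, 16.2 and 10.9 CPM in SSCs (-6.22 ± 0.34, 74.6-fold, adjusted p = 2.44e-04). Bglap has a near-identical neighbour, Bglap2 (-3.52 ± 0.39, adjusted p = 0.00225), and 38.1% of the 100-base stretches of Bglap occur at another locus, so the split of reads between them is uncertain. Ifitm5, a membrane protein of mineralizing osteoblasts, fell from 112, 168 and 158 CPM to 0.572, 0.793 and 0.664 CPM (-7.75 ± 0.30, adjusted p = 1.59e-04). Dmp1, made by cells that turn into osteocytes, had 263, 1652 and 536 CPM in OPCs and 1.75, 7.63 and 0.494 CPM in SSCs (-7.96 ± 1.35, adjusted p = 0.0101). Sparc, a collagen-binding matrix protein, had 47254, 72907 and 74604 CPM in OPCs and 8869, 12360.3 and 8929.5 CPM in SSCs (-2.69 ± 0.41, adjusted p = 0.00685, but 0.246 in edgeR's bias-adjusted quasi-likelihood test). Spp1, which encodes osteopontin, was lower by less (-1.78 ± 0.48, adjusted p = 0.0437), and lost its call without any single library, with log2 fold changes of -2.01 to -1.42. Mepe was lower as well (-4.73 ± 1.32, adjusted p = 0.0490), a call that held only without SSC replicate 3.

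Promoters of the called osteoblast and cartilage genes were searched for the core motif bound by RUNX factors, because Runx2 itself differed between the cell types. The letters searched were TGTGGT and, on the other strand, ACCACA, in the 250 bases before each gene's start, in RefSeq sequence of GRCm38.p6. The motif was found in 1 of the 2 called osteoblast transcription factors that had an entry, in 4 of 7 called bone matrix genes and in 3 of 14 called chondrocyte genes. The list of mineralization and phosphate handling was searched in the same way, and none of its genes called lower gave a match. Windows of 46 bases around the match, 5′ to 3′ on the gene's strand with the motif in capitals, are shown for the gene that encodes the factor and for 3 bone matrix genes, and for Matn1 as a cartilage gene with 0 counts in each SSC library. Starts are those of RefSeq. GENCODE M21, used here to name genes, starts Runx2 further upstream, so that its window lies inside the gene there.
Runx2 (chr17:44814682-44814727, minus strand, 80 bases before the start): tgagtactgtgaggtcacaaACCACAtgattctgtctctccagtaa
Bglap (chr3:88384573-88384618, minus strand, 132 bases before the start): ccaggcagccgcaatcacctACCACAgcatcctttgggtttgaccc
Spp1 (chr5:104434963-104435008, plus strand, 128 bases before the start): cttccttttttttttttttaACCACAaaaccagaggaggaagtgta
Dmp1 (chr5:104202433-104202478, plus strand, 164 bases before the start): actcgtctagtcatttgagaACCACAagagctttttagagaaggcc
Matn1 (chr4:130944231-130944276, plus strand, 134 bases before the start): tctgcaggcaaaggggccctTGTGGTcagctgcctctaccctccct
Over all tested genes the share with the motif was of like size in each class. The motif occurred in 109 of 958 promoters of genes called lower (11.4%), in 144 of 1044 of genes called higher (13.8%) and in 1401 of all 10931 tested genes with an entry (12.8%). A match describes these letters in this window and not binding.

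Genes for mineralization and phosphate handling were lower in 7 and higher in 1 of 11 tested members (median -2.98). Alpl, the phosphatase that frees phosphate for mineral, had 1246, 1661 and 1812 CPM in OPCs and 169, 236 and 193 CPM in SSCs (-2.98 ± 0.27, adjusted p = 0.00116). Phex, an endopeptidase of phosphate balance, fell from 97.3, 251 and 144 CPM to 11.2, 14.4 and 15.3 CPM (-3.59 ± 0.39, adjusted p = 0.00222). Car3, a carbonic anhydrase, showed the largest change of the list, from 841, 1741 and 1289 CPM to 5.06, 1.89 and 3.41 CPM (-8.54 ± 0.58, adjusted p = 4.77e-04). The member that rose was Slc20a1, a phosphate carrier used by most cells (1.70 ± 0.33, adjusted p = 0.0159, lost without OPC replicate 2 or 3). Among 12 genes of osteocytes, the cells buried in bone, 6 were lower and 2 higher (median -2.73). Dkk1, a secreted Wnt inhibitor, had 34.1, 86.8 and 65.8 CPM in OPCs and 0, 0.604 and 0 CPM in SSCs (-8.31 ± 1.38, adjusted p = 0.00955). The 2 that rose, Capg (2.35 ± 0.23) and Hspb1 (2.57 ± 0.62), encode an actin-capping protein and a small heat-shock protein, which other cells make too; the call of Hspb1 held only without OPC replicate 1, and 49.4% of its 100-base stretches occur at another locus. Without Hspb1, the only member with copies, the median was -3.59.

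Collagen genes carried the largest differences in level. Col1a1 (chromosome 11, 94936224-94953042, plus strand) had 136246, 274478 and 236440.2 CPM in OPCs and 988, 1155 and 2881 CPM in SSCs (-7.01 ± 0.76, 129-fold, adjusted p = 0.00213), and Col1a2 was 34.6-fold lower (-5.11 ± 0.57, adjusted p = 0.00240). Both calls were lost in edgeR's bias-adjusted quasi-likelihood test, an alternative that estimates the spread of each gene differently (adjusted p = 0.209 and 0.250). OPC replicate 1 was the lowest of the OPC libraries for both chains of type I collagen, and SSC replicate 3 the highest of the SSC libraries. Of 41 collagen genes tested, 19 were lower and 2 higher in SSCs. The 2 that rose were Col14a1, a fibril-associated collagen, with 6.58, 9.71 and 9.34 CPM in OPCs and 203, 127 and 312 CPM in SSCs (4.65 ± 0.40, adjusted p = 9.82e-04), and Col6a6, with 0.0451, 0 and 0 CPM against 7.80, 8.22 and 16.6 CPM. The enzymes and chaperones that fold and crosslink collagen were lower in 11 and higher in 1 of 25 (median -1.29). Serpinh1, the collagen chaperone HSP47, had 4483, 7506 and 10546 CPM in OPCs and 1029, 972 and 1122 CPM in SSCs (-2.85 ± 0.38, adjusted p = 0.00466). P3h1 (-2.38 ± 0.35) and Fkbp10 (-2.17 ± 0.29), which modify and fold procollagen, were lower too, while the prolyl hydroxylase subunit P4ha3 was higher (1.54 ± 0.32, adjusted p = 0.0186, lost without OPC replicate 2 or any SSC library). In the wider secretory pathway 6 of 30 genes were lower and 1 was higher; the median of -0.27 turned to 0.17 under library totals alone. Creb3l1, a factor that raises collagen secretion in osteoblasts, was among those lower (-2.39 ± 0.36, adjusted p = 0.00696).

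SSCs were high instead in genes of Sca-1-positive fibroblasts, the stromal cells of adventitia and loose connective tissue, a list that holds Ly6c1 (16.6% of stretches shared with another locus) and Cd34 but not the sorting gene Ly6a. Of 30 tested, 22 were higher and 0 lower, with a median of 3.05. Pi16, a marker of adventitial fibroblasts, had 7.09, 0.532 and 0.861 CPM in OPCs and 433, 190.1 and 524 CPM in SSCs (7.07 ± 1.19, adjusted p = 0.00998). Procr, a receptor for protein C and a marker of some tissue stem cells, rose from 0.301, 1.67 and 1.21 CPM to 163, 135 and 140.3 CPM (7.11 ± 0.65, adjusted p = 0.00116). Cd248, an endosialin of stromal cells, had 8.01, 11.99 and 7.74 CPM in OPCs and 541, 246 and 685 CPM in SSCs (5.73 ± 0.48, adjusted p = 9.06e-04). Gsn (chromosome 2, 35256380-35307892, plus strand), an actin-severing protein, showed the largest rise in level, from 5974, 2968 and 2521 CPM to 68885, 52280.0 and 71869 CPM (4.07 ± 0.51, adjusted p = 0.00360, but 0.101 in edgeR's bias-adjusted quasi-likelihood test). OPC replicate 1 was the highest OPC library for Pi16 and Gsn, as it was for Ly6a. Clec3b and Mfap5 were higher by 6.66 ± 1.30 and 5.28 ± 0.89, with calls that were lost without OPC replicate 2. Dpp4, a further marker of these fibroblasts named here after its values were seen, had 7.13, 0 and 0 CPM in OPCs and 92.6, 57.9 and 75.8 CPM in SSCs but did not pass the test (4.98 ± 1.88, adjusted p = 0.114).

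Matrix genes of loose connective tissue were higher in part. Dcn, the small proteoglycan decorin, had 8443, 5969 and 6835 CPM in OPCs and 37406, 47211 and 32411 CPM in SSCs (2.46 ± 0.36, adjusted p = 0.00642, but 0.160 in edgeR's bias-adjusted quasi-likelihood test), and of 16 small leucine-rich proteoglycans 4 were higher and 1 lower. Aspn (3.12 ± 0.52) and Ecm2 (2.84 ± 0.37) rose with it, and Podnl1 fell (-3.16 ± 0.36). Among 20 elastic fibre genes 9 were higher and 4 lower (median 0.55). Eln, elastin itself, had 15.4, 16.0 and 12.1 CPM in OPCs and 70.2, 48.3 and 142 CPM in SSCs (2.58 ± 0.42, adjusted p = 0.00856), and Efemp1 (3.73 ± 0.61) and Emilin2 (4.13 ± 0.49) were higher too. Emilin1, of the same family as Emilin2, was lower (-1.95 ± 0.32, adjusted p = 0.00924).

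**Figure D3:**
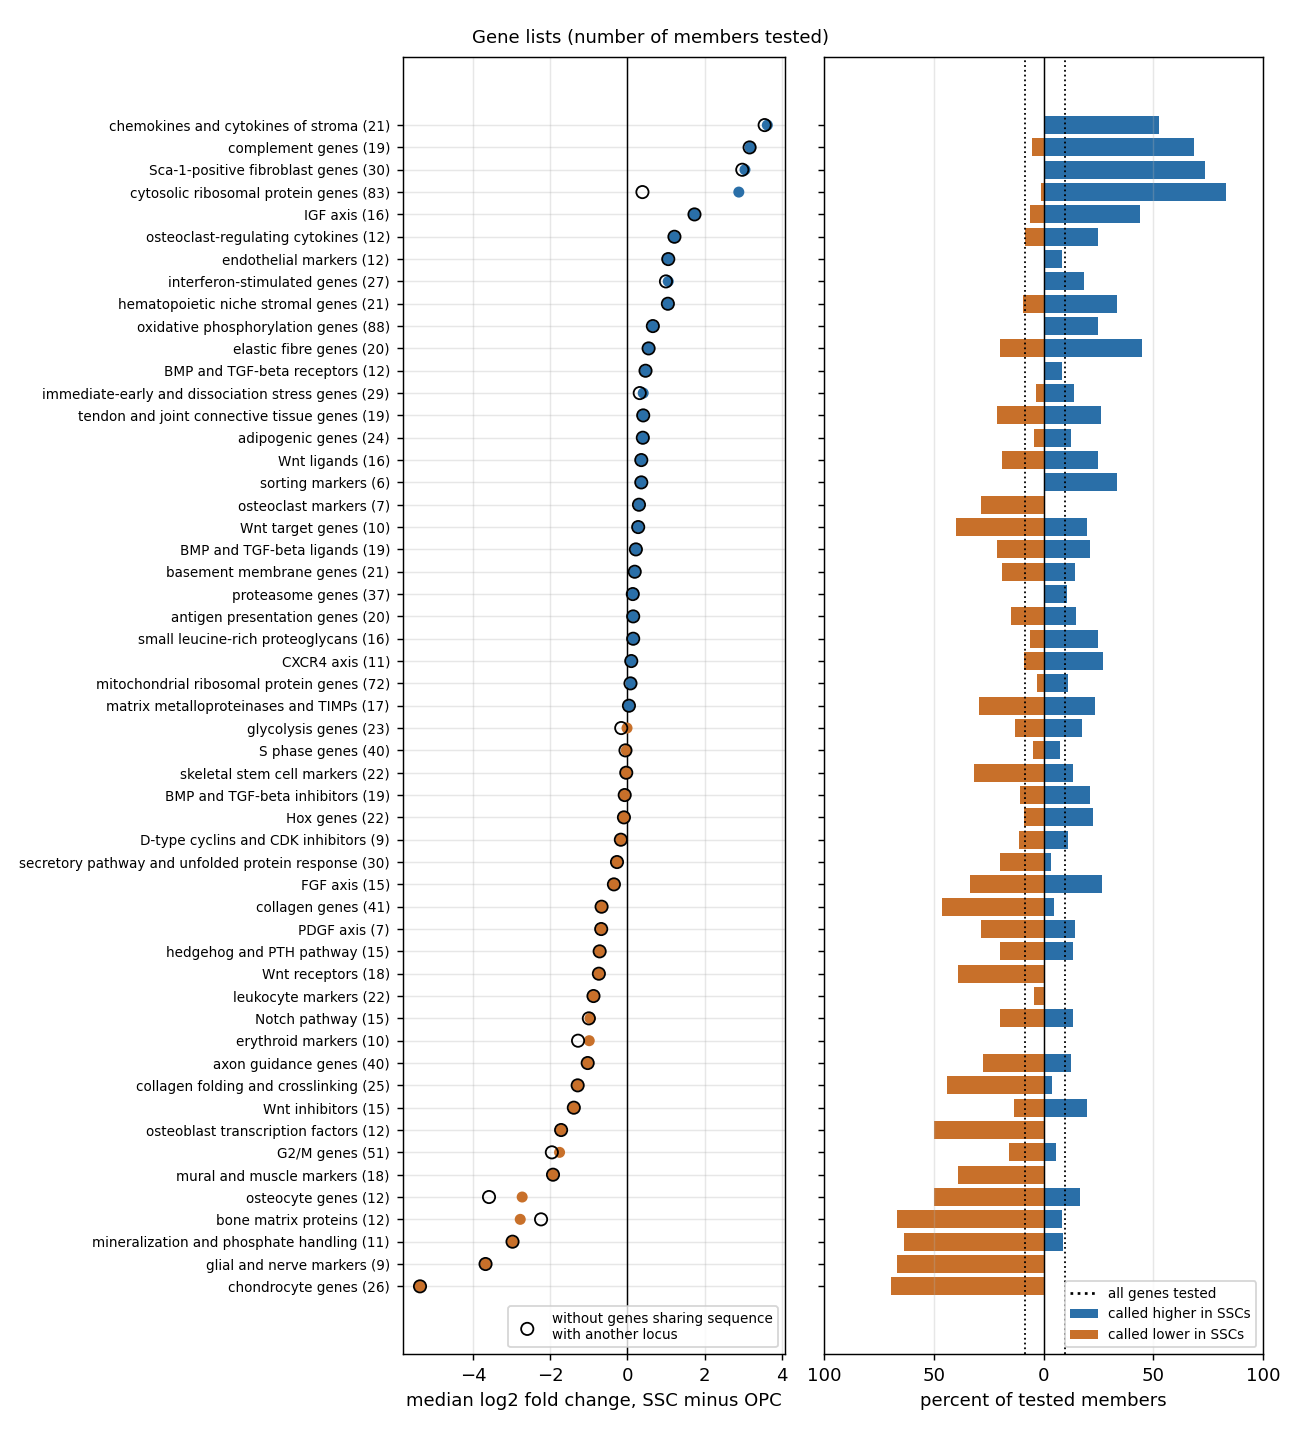
Left, the median log2 fold change (SSC minus OPC) of each gene list, filled blue above and orange below 0, with open circles for the same list without genes that share sequence with another locus; right, the percent of tested members called higher (blue) or lower (orange), with dotted lines at the 9.58% and 8.49% of all genes. Fibroblast, complement and chemokine lists lie at the top, cartilage, glial and mineralization lists at the bottom, and the ribosomal protein list moves from 2.89 to 0.39 when genes with copies are left out.

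Genes used as skeletal stem cell markers showed no single direction: 3 of 22 were higher, 7 lower, and the median was -0.03 with a sign that turned in several of the alternative fits. Prrx1, a factor of limb mesenchyme, had 31.8, 34.7 and 23.9 CPM in OPCs and 81.6, 84.9 and 71.2 CPM in SSCs (1.40 ± 0.21, adjusted p = 0.00653), and Pthlh, which marks stem cells of resting cartilage, rose from 1.08, 6.23 and 2.61 CPM to 46.6, 30.5 and 41.1 CPM (3.58 ± 0.63, adjusted p = 0.0116). Cd200 (-1.99 ± 0.29), Mcam (-4.01 ± 0.64), Fgfr3 (-4.19 ± 0.66) and Sox9 (-1.58 ± 0.32, lost without 4 of the 6 libraries) were lower. Grem1 had 6.997, 0.703 and 0.875 CPM in OPCs and 3.88, 2.002 and 2.28 CPM in SSCs (-0.07 ± 0.97, adjusted p = 0.968), and its sign turned under several alternatives. Among 21 stromal genes of the hematopoietic niche, 7 were higher and 2 lower (median 1.05). Their summed level went the other way, at 11438 to 15231 CPM in OPCs and 4600.3 to 8211 CPM in SSCs. The most abundant members weigh most in such a sum, so it does not describe the list as a whole. Lepr, the leptin receptor that marks perivascular stroma, had 70.2, 52.5 and 48.2 CPM in OPCs and 231, 231 and 209 CPM in SSCs (1.97 ± 0.21, adjusted p = 0.00212). Ebf1, a factor of marrow stroma, rose from 29.7, 12.3 and 12.5 CPM to 150.3, 139 and 144 CPM (2.99 ± 0.39, adjusted p = 0.00423), and Angpt1, a ligand for the receptor TIE2, from 4.21, 5.91 and 2.78 CPM to 22.97, 22.97 and 26.4 CPM (2.49 ± 0.34). Kitl, which encodes stem cell factor, had 10.8, 7.60 and 6.78 CPM in OPCs and 10.4, 13.2 and 3.53 CPM in SSCs (0.11 ± 0.51, adjusted p = 0.906).

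Fat genes were called about as often as genes at large and tendon genes more often. Of 24 adipogenic genes 3 were higher and 1 lower (median 0.40). Ebf2, a factor of adipocyte precursors, had 4.36, 2.89 and 0.792 CPM in OPCs and 106, 64.4 and 109 CPM in SSCs (5.12 ± 0.65, adjusted p = 0.00392). Adipoq, the hormone of mature fat cells, was at 7.33 CPM or lower in all 6 libraries (-2.31 ± 1.21, adjusted p = 0.235). Of 19 genes of tendon and joint tissue 5 were higher and 4 lower (median 0.41), with Creb5 higher (2.19 ± 0.33) and the matrix protein Tnc lower, from 975, 758 and 578 CPM to 87.2, 125 and 118 CPM (-2.81 ± 0.29, adjusted p = 0.00184).

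Cartilage genes had the largest median difference of the 53 lists, and their levels varied between the OPC libraries. Of 26 tested, 18 were lower in SSCs and 0 higher (median -5.38). Col2a1 (chromosome 15, 97975602-98004695, minus strand), the main collagen of cartilage, had 9367, 28831 and 50302 CPM in OPCs and 7.52, 71.9 and 101 CPM in SSCs (-8.94 ± 1.32, 489.7-fold, adjusted p = 0.00650). Acan, its large proteoglycan, had 503, 1134 and 1843 CPM in OPCs and 7.18, 17.1 and 12.1 CPM in SSCs (-6.58 ± 0.65, adjusted p = 0.00160). Col10a1, which marks hypertrophic chondrocytes, had 52.1, 494 and 277 CPM in OPCs, while the SSC libraries held 1 count in all, a ratio of summed CPM of 44256 with a 95% counting interval of 7943 to 1748002. Matn1 (chromosome 4, 130944385-130955475, plus strand), a matrix protein of cartilage, had 13.8, 156 and 392 CPM in OPCs and 0 in each SSC library, which makes it at least 11159-fold lower against a floor of 3 counts over the SSC group. The call of Matn1 was lost without OPC replicate 2. OPC replicate 1 was the lowest OPC library for each of these genes, and held 24972 CPM of the whole list against 56085 and 98823 in the others. Comp and Chad, which tendon and other tissues make too, did not pass the test, with 3145, 4674 and 8446 CPM of Comp in OPCs and 8094, 14051 and 12237 CPM in SSCs (1.08 ± 0.45, adjusted p = 0.145).

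Transcripts of other cell types were present in both groups. Of 18 mural and muscle markers 7 were lower in SSCs (median -1.93), and their summed level was 942 to 1689 CPM in OPCs and 183 to 415 CPM in SSCs. Pax7, the factor of muscle satellite cells (chromosome 4, 139737062-139833528, minus strand), had 39.2, 15.2 and 7.64 CPM in OPCs and 0 in each SSC library, at least 1182-fold lower. Myod1 (43.5, 24.3 and 14.4 CPM) and Des (509, 167 and 167 CPM) had their highest value in OPC replicate 1, and in SSCs Myod1 was at 0, 0.0378 and 0 CPM. Of 9 glial and nerve markers 6 were lower in SSCs (median -3.68), among them Sox10, a factor of glial cells, with 11.9, 18.8 and 5.10 CPM in OPCs and 0 in each SSC library. Their summed level overlapped between the groups (465 to 1402 CPM and 833 to 1188 CPM). Much of it was Pmp22, which is not specific to glia. Pmp22 had 669.7, 842 and 246 CPM in OPCs and 925, 1154 and 802 CPM in SSCs (0.71 ± 0.45, adjusted p = 0.314). Of 7 osteoclast markers 2 were called lower in SSCs, Calcr (-7.23 ± 1.71) and Mmp9 (-6.08 ± 1.06), with calls that were lost without several libraries and without SSC replicate 1. The change was positive for 5 of the 7 markers and negative for 2, with a median of 0.30. The summed level of the 7 was 551 to 641 CPM in OPCs and 509.7 to 759 CPM in SSCs. Of 22 leukocyte markers only Lyz2 was called (lower, -1.45 ± 0.32, lost without OPC replicate 2 or any SSC library), and the sum was 138 to 218 CPM in OPCs and 1687 CPM in SSC replicate 1, of which 1537 CPM were Igkc, against 51.3 and 67.4 CPM in the other SSC libraries. Of 12 endothelial markers only Tek was called (higher, 2.23 ± 0.52, lost without 4 of the 6 libraries), with sums of 26.4 to 102 CPM in OPCs and 54.3 to 182 CPM in SSCs. Of 10 erythroid markers 0 were called in edgeR's test, 0 had an unadjusted p under 0.05, and DESeq2 called 0. The part that such cells had in the differences of the other lists was not tested.

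**Figure D4:**
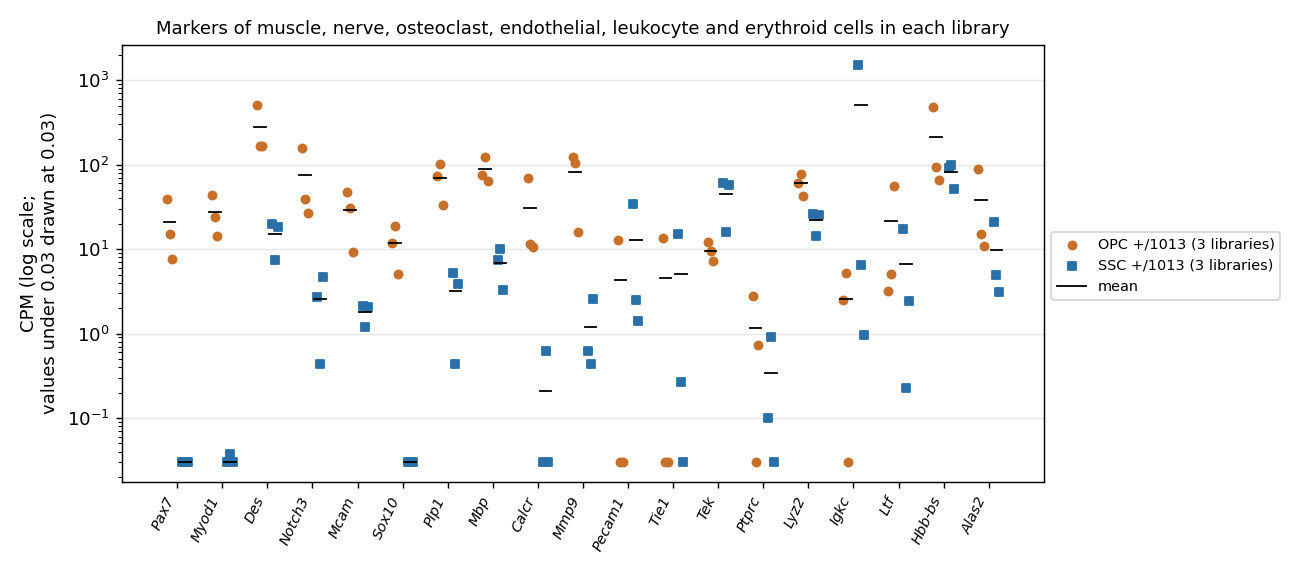
CPM on a log axis of 19 markers of muscle, nerve, osteoclast, endothelial, leukocyte and erythroid cells in each of the 3 OPC (orange circles) and 3 SSC (blue squares) Cxcr4+/1013 libraries, with a black line at the mean and values under 0.03 CPM drawn at 0.03. Muscle and glial markers stand above SSCs in all OPC libraries, and Igkc stands at 1537 CPM in a single SSC library.

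Complement genes were higher in SSCs in 13 and lower in 1 of 19 tested (median 3.18). C3, the central component, had 5.16, 3.61 and 2.64 CPM in OPCs and 963, 896 and 1546 CPM in SSCs (8.22 ± 0.46, 298-fold, adjusted p = 2.56e-04). C7, of the membrane attack complex, rose from 1.34, 0 and 1.96 CPM to 166, 184 and 214 CPM (7.39 ± 1.21, adjusted p = 0.00910). C1s1, a protease of the classical pathway, had 32.8, 11.8 and 7.34 CPM in OPCs and 659.8, 573 and 582 CPM in SSCs (5.13 ± 0.62, adjusted p = 0.00321). Inhibitors did not move as one, since Cd55 was higher (5.28 ± 0.56) and Cd59a lower (-2.51 ± 0.33). Serping1, the inhibitor of the first component, was higher (3.15 ± 0.69, adjusted p = 0.0217) with a call that held only without OPC replicate 1.

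Stromal chemokines and cytokines were higher in 11 and lower in 0 of 21 (median 3.63). Il6 had 5.79, 0.570 and 3.35 CPM in OPCs and 195, 909 and 136 CPM in SSCs (6.99 ± 1.20, adjusted p = 0.0105). Ccl7, which attracts monocytes, had 8.22, 1.88 and 1.74 CPM in OPCs and 97.7, 357 and 33.8 CPM in SSCs (5.37 ± 1.11, adjusted p = 0.0186, lost without OPC replicate 2 or 3). SSC replicate 2 was the highest for both, and also for Ptgs2, with 57.9, 263 and 40.8 CPM in SSCs, whose call was lost without 4 of the 6 libraries. Cxcl14, which varied less, rose from 11.7 to 38.1 CPM in OPCs to 194 to 281 CPM in SSCs (3.23 ± 0.45, adjusted p = 0.00543). Among 12 cytokines that act on osteoclasts 3 were higher (Csf1, Il6 and Ccl2) and 1, Il12a, lower; of these only Il6 kept its call without each single library. Counted over both directions, stress and interferon genes were called about as often as all genes tested (18.1%). Of 29 immediate-early and dissociation stress genes, a list that also responds to handling, 4 were higher and 1 lower (median 0.41). Fosb fell (-1.75 ± 0.42) and Dusp1 rose (1.01 ± 0.27), with calls lost without 4 and 5 of the 6 libraries. Interferon-stimulated genes were higher in 5 and lower in 0 of 27 (median 1.06), beside 9.58% higher and 8.49% lower over all genes tested. Their change was positive for 22 members and negative for 5. Ifit2 had 5.60, 4.73 and 4.89 CPM in OPCs and 27.3, 15.2 and 22.8 CPM in SSCs (2.10 ± 0.31, adjusted p = 0.00615). Antigen presentation genes were split, with 3 of 20 higher and 3 lower; H2-T23 rose (2.38 ± 0.29) and H2-Q7 fell (-3.01 ± 0.34), the latter with 15.1% of its stretches shared with another locus.

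Wnt signalling holds stem cells and drives osteoblasts, and its parts went different ways. Receptors were lower in 7 and higher in 0 of 18 (median -0.74). Lrp5, a co-receptor that sets bone mass, had 22.7, 20.3 and 13.5 CPM in OPCs and 1.35, 1.79 and 4.50 CPM in SSCs (-2.89 ± 0.54, adjusted p = 0.0135, lost without OPC or SSC replicate 2), and Fzd9 fell from 56.4, 113 and 119 CPM to 16.9, 18.4 and 26.8 CPM (-2.21 ± 0.35). Of 16 ligands and R-spondins 4 were higher and 3 lower. Wnt2 had 0 counts in each OPC library and 9.42, 10.3 and 10.9 CPM in SSCs, at least 649.9-fold higher, whereas Wnt4 had 27.3, 22.5 and 26.9 CPM in OPCs and 1.58, 1.19 and 1.84 CPM in SSCs (-4.05 ± 0.30, adjusted p = 6.14e-04). Rspo4, an R-spondin, was lower (-5.49 ± 0.71). Of 15 inhibitors 3 were higher and 2 lower, with a median of -1.39 that turned to 0.14 where at least 10 counts were asked of every library. Dkk2 rose from 2.14, 0.779 and 2.35 CPM to 84.9, 83.3 and 85.8 CPM (5.58 ± 0.45, adjusted p = 8.04e-04), and Sfrp4 from 151, 99.3 and 93.1 CPM to 1032, 918 and 1321 CPM (3.25 ± 0.30), while Dkk1 was lower as given above. Of 10 target genes 2 were higher and 4 lower. The factor Tcf7 (-3.76 ± 0.28, adjusted p = 6.05e-04) and the matricellular protein Ccn4 (-5.29 ± 0.48, adjusted p = 0.00110) fell, and Ccn5 of the same family rose (2.93 ± 0.25, adjusted p = 9.06e-04).

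The BMP and TGF-beta family was divided in the same way, with 4 of 19 ligands higher and 4 lower. Bmp3 had 222, 255 and 234 CPM in OPCs and 11.5, 8.94 and 9.32 CPM in SSCs (-4.58 ± 0.21, adjusted p = 1.92e-04), and Bmp7 and Bmp8a, which drive bone formation, fell by 3.50 and 3.13 on the log2 scale. Tgfb1 was lower (-2.46 ± 0.29, adjusted p = 0.00311), and Tgfb3 (1.41 ± 0.26, lost without OPC replicate 2) and Inhba (2.30 ± 0.39) were higher. Of 12 receptors 1, Bmpr1b, was called (higher, a call that held only without OPC replicate 2). Among 19 inhibitors 4 were higher and 2 lower: Fst, the activin trap follistatin, rose from 4.77, 4.05 and 2.38 CPM to 168, 103 and 132 CPM (5.17 ± 0.37, adjusted p = 5.18e-04), and Chrdl2, a BMP trap, fell from 334, 72.0 and 84.1 CPM to 0, 0 and 0.307 CPM (-10.59 ± 1.42, adjusted p = 0.00459).

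Hormone and growth factor genes differed on both sides of their axes. Pth1r, the receptor for parathyroid hormone, had 1034, 1064 and 1694 CPM in OPCs and 134, 94.3 and 131 CPM in SSCs (-3.40 ± 0.31, adjusted p = 0.00122), while its local ligand Pthlh was higher in SSCs. Of 15 genes of the hedgehog and PTH pathway 2 were higher and 3 lower, the others being Boc (1.84 ± 0.25), Smo (-1.37 ± 0.32, lost without 4 of the 6 libraries) and Ptch1 (-2.33 ± 0.46, lost without SSC replicate 1 or 2). The IGF axis was higher in 7 and lower in 1 of 16 (median 1.74). Igf1 had 46.7, 48.1 and 13.4 CPM in OPCs and 237, 270.2 and 222 CPM in SSCs (2.75 ± 0.48, adjusted p = 0.0112), and the binding proteins Igfbp6 (4.71 ± 0.73), Igfbp3 (4.23 ± 0.37) and Igfbp7 (2.93 ± 0.25) rose with it. In the FGF axis 4 of 15 were higher, all of them ligands, and 5 were lower, all of them receptors. Fgf7 rose from 3.75, 0.627 and 1.65 CPM to 60.01, 63.7 and 51.6 CPM (4.86 ± 0.64, adjusted p = 0.00434) and Fgf18 from 2.71, 1.22 and 0.875 CPM to 39.1, 28.7 and 25.7 CPM (4.28 ± 0.50). Fgfr4 had 609.7, 159 and 115 CPM in OPCs and 0, 0.472 and 0.256 CPM in SSCs (-10.26 ± 1.33, adjusted p = 0.00413). Of 7 PDGF genes the ligands Pdgfa (-2.08 ± 0.28) and Pdgfd (-2.25 ± 0.26) were lower. In the Notch pathway 2 of 15 were higher and 3 lower; Heyl, a Notch target, fell (-3.88 ± 0.70, lost without SSC replicate 3), with Notch3 (-4.84 ± 1.05, lost without OPC replicate 2 or SSC replicate 1 or 3), which is also a mural cell marker.

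Axon guidance genes, many of which bone cells use to signal to nerves and osteoclasts, were higher in 5 and lower in 11 of 40 (median -1.03). Slit2 had 30.9, 67.8 and 48.6 CPM in OPCs and 3.95, 1.38 and 2.64 CPM in SSCs (-4.20 ± 0.50, adjusted p = 0.00300). Sema6a (-3.60 ± 0.55) was lower, and Sema3c was higher, at 19.9, 17.5 and 24.98 CPM in OPCs and 139, 199.8 and 227 CPM in SSCs (3.18 ± 0.27, adjusted p = 9.06e-04). Of 17 matrix metalloproteinases and inhibitors 4 were higher and 5 lower. Mmp16 (-3.24 ± 0.39) and Mmp13 (-1.73 ± 0.40, lost without OPC replicate 2 or SSC replicate 1 or 2) fell, Timp3 rose (2.37 ± 0.29), and Mmp3 rose from 6.02, 37.7 and 11.8 CPM to 229, 303 and 182 CPM (3.69 ± 0.69, lost without OPC replicate 3). Basement membrane genes were mixed, with 3 of 21 higher and 4 lower; Lama4 rose (2.00 ± 0.36) and Agrn fell (-2.21 ± 0.42), both lost without OPC replicate 2 and Agrn also without SSC replicate 2. Of 22 Hox genes 5 were higher and 2 lower, with Hoxa11, a patterning gene of the forearm and shank, at 1.78, 2.13 and 3.14 CPM in OPCs and 15.6, 13.6 and 18.0 CPM in SSCs (2.74 ± 0.36, adjusted p = 0.00413).

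Genes of the last phases of the cell cycle were lower in SSCs in 8 and higher in 3 of 51 tested (median -1.76). Over all genes tested 8.49% were lower and 9.58% higher. Ccnb2, a cyclin of mitosis, had 9.66, 30.0 and 48.5 CPM in OPCs and 2.09, 1.93 and 0.715 CPM in SSCs (-4.22 ± 0.72, adjusted p = 0.0101). Hmgb2 rose (3.13 ± 0.33) but shares 23.6% of its stretches with other loci. Of 40 S phase genes 3 were higher and 2 lower, with a median of -0.03 that turned to 0.39 under library totals alone. Among 9 D-type cyclins and inhibitors Ccnd1 was lower (-2.01 ± 0.40, lost without OPC replicate 2 or SSC replicate 1 or 2) and Cdkn1a higher (1.05 ± 0.28, lost without any single library).

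Ribosomal protein genes were higher in SSCs in 69 and lower in 1 of 83 (median 2.89), and most of them have processed copies elsewhere in the genome. Rpl9 had 1.05, 0.798 and 1.95 CPM in OPCs and 183, 171 and 148 CPM in SSCs (7.04 ± 0.42, adjusted p = 3.15e-04), and 24.5% of its 100-base stretches occur at another locus. Of the 65 members with at least 10% of their stretches shared, 63 were higher and 0 lower (median 3.61); of the 18 with less, 6 were higher and 1 lower (median 0.39). Rpl13a, one of the latter, had 7.76, 8.19 and 9.50 CPM in OPCs and 2.49, 4.12 and 2.45 CPM in SSCs (-1.49 ± 0.39, adjusted p = 0.0411, lost without any single library). The 72 mitochondrial ribosomal protein genes gave 8 higher and 2 lower, with a median of 0.09, beside 9.58% higher and 8.49% lower over all genes tested.

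The same relation ran through the whole transcriptome. Protein-coding genes with no shared stretch numbered 11506, of which 7.94% were higher and 9.90% lower in SSCs (median -0.10). In the 487 genes with 10 to 50% shared, 44.1% were higher and 2.87% lower (median 1.17), and in the 108 genes with more than 50% shared, 41.7% and 1.85% (median 1.54). Genes with copies made up 21.95% of all genes called higher. Gapdh, the glycolytic enzyme often used as a reference, had 34.3, 28.1 and 34.1 CPM in OPCs and 425, 539.6 and 366 CPM in SSCs (3.79 ± 0.25, adjusted p = 3.86e-04), with 53.0% of its stretches shared. Actg1, the cytoplasmic gamma-actin, and Ftl1, the ferritin light chain, both named after their values were seen, had 2.00, 1.06 and 2.64 and 6.76, 2.68 and 3.54 CPM in OPCs and 334, 391 and 291 and 714, 689.9 and 652 CPM in SSCs. Over all libraries of the series, Actg1 stood at 1.09 to 4.02 CPM in 9 OPC and 212 to 413 CPM in 8 SSC libraries. Of the 23 glycolysis genes 4 were higher and 3 lower with a median of -0.01, whose sign turned under 5 alternatives, and 3 of the 4 that rose (Gapdh, Pgk1 and Pgam1) share more than 50% of their stretches. Values of genes with copies are therefore uncertain in size, and whether counting, alignment or expression set them apart was not tested.

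**Figure D5:**
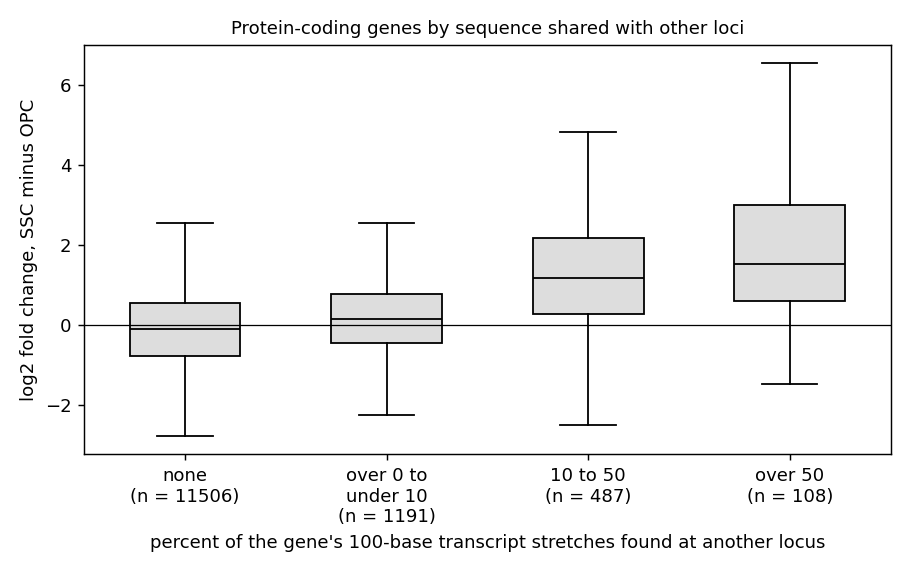
Log2 fold change (SSC minus OPC, vertical axis) of protein-coding genes in 4 classes by the percent of their 100-base transcript stretches that occur at another locus (horizontal axis); boxes span the quartiles with the median as a line, whiskers reach 1.5 times the box height, and points beyond are not drawn. The median moves from -0.10 in genes with no shared stretch to 1.54 in those with over 50% shared.

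Oxidative phosphorylation genes were higher in SSCs in 22 and lower in 0 of 88 (median 0.66), and in 17 and 0 of the 75 without copies. Uqcrb, a subunit of complex III, had 11.8, 14.2 and 8.17 CPM in OPCs and 75.8, 126 and 63.6 CPM in SSCs (2.96 ± 0.35, adjusted p = 0.00300), and Cox5b, of complex IV, 4.94, 8.34 and 4.90 CPM and 29.3, 26.3 and 26.5 CPM (2.18 ± 0.30). Uqcrb shares 7.65% and Cox5b 6.88% of its stretches with another locus, which is under the 10% that sets a gene apart. Short transcripts were higher more often than long ones: of genes without copies, 46 of the 219 with an exon length under 1 kb were higher in SSCs and 12 lower, against 282 and 413 of the 4172 over 6 kb. Many subunits of the respiratory chain have short transcripts, and the part of length in their difference was not tested. Of 37 proteasome genes 4 were higher and 0 lower (median 0.15), beside 9.58% higher and 8.49% lower over all genes tested.

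Among called genes with at least 10 CPM, the 12 largest fitted rises and the 12 largest fitted falls were examined; for genes at 0 in a group the fitted size depends on the count added by the fit, so their order is not established. Among them was Cyp2f2 (chromosome 7, 27119909-27133660, plus strand), a cytochrome P450, with 0 counts in each OPC library and 53.5, 75.3 and 92.1 CPM in SSCs, at least 4679-fold higher. The growth factor Vegfd (at least 797-fold), the receptor Gpr1 (at least 1155-fold), and the serine protease inhibitors Serpinb7 (at least 1219-fold) and Serpina3m (at least 1150.5-fold) were likewise at 0 in each OPC library. Ifi205 and the neuronal splicing factor Nova1 rose from near 0 to 81.0 to 201 CPM and 14.9 to 26.9 CPM, and 13.4% of the stretches of Ifi205 are shared with another locus. Mrgprg, of a receptor family known from sensory neurons, had 30.8, 56.4 and 5.54 CPM in SSCs and 0 in OPCs. Serpina1e rose (8.59 ± 1.61) with a value of 0.992 CPM in SSC replicate 1 and 26.2 and 33.3 CPM in the other SSC libraries, a call lost without OPC replicate 2, and shares 16.3% of its stretches. Besides cartilage, muscle and glial genes, the largest falls were those of Prox1 (45.5, 33.3 and 7.23 CPM in OPCs), the sulfotransferase Hs6st2 (53.6, 17.6 and 14.3 CPM), the potassium channel Kcna1 (25.9, 39.3 and 14.9 CPM), Ranbp3l (12.02, 19.8 and 26.8 CPM), Bche (19.8, 30.8 and 2.45 CPM), Otoa (20.8, 6.16 and 25.2 CPM) and Iqsec3 (24.4, 14.8 and 4.99 CPM), each with 0 counts in all SSC libraries.

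Whether the SSC-OPC difference in Cxcr4+/1013 cells was that of the other genotypes was tested in a model of all 17 libraries, as the difference of the 2 differences, with CPM values scaled over all 17. Of 20238 genes tested, 17 (0.0840%) differed between Cxcr4+/1013 and WT in edgeR's test, and the smallest adjusted p was 0.0449. An unadjusted p under 0.05 in the same test was found for 2153 genes, so the few calls do not show that the other genes were alike. The difference was more positive in Cxcr4+/1013 for 14 of the 17 and more negative for 3. These calls were fragile: DESeq2 called 437 genes, whereas edgeR called 0 with DESeq2 size factors, with the bias-adjusted test, with a replicate block and when 10 of the 12 WT and Cxcr4+/1013 libraries were each left out. Of the 14, 13 encode ribosomal proteins and the other is the initiation factor subunit Eif3i. Rpl32, with no shared stretch, had 35.4, 47.3 and 52.7 CPM in WT OPCs and 50.2, 47.9 and 53.5 CPM in WT SSCs, but 44.2, 43.4 and 28.4 CPM in Cxcr4+/1013 OPCs and 169, 137 and 153 CPM in Cxcr4+/1013 SSCs (1.82 ± 0.27, adjusted p = 0.0449). The OPC values overlapped between the genotypes and the SSC values did not. Adamts10, a protease of microfibrils, had 42.4, 29.4 and 50.1 CPM in WT OPCs and 86.3, 137 and 75.5 CPM in WT SSCs, against 34.9, 40.96 and 57.4 CPM and 10.01, 9.52 and 18.95 CPM in Cxcr4+/1013 (-3.08 ± 0.46, adjusted p = 0.0449). Ccnl2, a cyclin tied to splicing, was likewise higher in WT SSCs, at 153, 179 and 154 CPM, than in Cxcr4+/1013 SSCs, at 57.0, 50.1 and 47.2 CPM (-1.72 ± 0.28, adjusted p = 0.0458). Against Cxcr4 1013/1013, whose SSC group has 2 libraries, edgeR called 0 genes (0% of 20238), 1129 had an unadjusted p under 0.05, and DESeq2 called 224. Cxcr4, Cxcl12, Runx2, Col1a1 and Bglap were not among the genes whose difference was called in either test.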

How the data were processed

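Bulk RNA was measured in pools of sorted bone cells with SMART-Seq v4 and Nextera XT libraries. The authors aligned reads to mm10 with STAR, counted reads per gene with HTSeq and deposited raw counts per gene for each library, with FastQC and DESeq2 named in the submitters' processing notes; versions, annotation, read length and strand setting are not given in the sources used here. The counter's own rows (no feature, ambiguous, not unique) were kept out of library sizes, and there were 0 columns without a sample. Of 55335 genes, 55154 were named through GENCODE M21 (GRCm38).

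The 3 SSC and 3 OPC libraries of Cxcr4+/1013 were fitted with edgeR 4.0.16 (limma 3.58.1, R 4.3.3) after filterByExpr and TMM scaling, with the quasi-likelihood test and Benjamini-Hochberg adjustment over all genes tested. Errors are SEs of the log2 fold change, taken from the F statistic. The study describes replicates as biological, each a pool of 3 mice, so p-values measure the spread between pools. DESeq2 1.42.0 was an alternative. Intervals and floors (3 counts over the group, 95% exact) cover counting error only. Copies were found by matching each 100-base stretch of every GENCODE M21 transcript to the annotated transcripts of other loci. Matches were exact and on the transcript strand, so copies outside the annotation or with mismatches in each stretch were not found. A gene with no shared stretch may therefore still have such copies. Genes with at least 10% of stretches shared were set apart. The fit was also run on simulated counts drawn from the means and spread of these libraries, and the outcome is not given here. Named genes were the 12 largest rises and falls and 5 largest CPM differences each way, up to 4 called members of each of 53 lists with at least 10 CPM (with other members where the text needed their role), a fixed set of markers, and up to 4 genes each way of each genotype test; predicted genes, Rik clones and a few genes not reported here were not named, and genes outside the rule are marked where their mention followed their values. The contrast, its lists and named members were chosen with earlier results of these data known. Among these was that WT SSC libraries stood apart from mutant SSC libraries. The libraries of each group follow from their labels.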

Additional observations from a re-analysis of the deposited data

Results flagged for a closer look

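The tests of the difference between genotypes gave 17 genes whose SSC-OPC difference in Cxcr4+/1013 was not that in WT, at an adjusted p under 0.05 in edgeR's quasi-likelihood test. On the log2 scale, the difference in Cxcr4+/1013 minus that in WT was -3.08 for Adamts10, -1.72 for Ccnl2 and -7.05 for Serpina3c, and 2.02 for Rpl37a, 1.82 for Rpl32, 1.59 for Rps20 and 1.56 for Rps7. Serpina3c, a serine protease inhibitor, had 0 counts in each WT OPC library, so its fitted value is not a bound; it had 12.6, 8.28 and 4.46 CPM in WT SSCs, 0.768, 0.952 and 1.47 CPM in Cxcr4+/1013 OPCs and 29.9, 34.5 and 34.6 CPM in Cxcr4+/1013 SSCs. Rps20 had 27.4, 28.2 and 27.1 CPM in WT SSCs and 72.4, 73.3 and 67.8 CPM in Cxcr4+/1013 SSCs, and in OPCs 31.6, 35.4 and 33.0 CPM and 31.4, 28.9 and 25.3 CPM. Rps7 shares 51.5% of its 100-base stretches with other loci, Rpl37a 12.3%, Rps20 12.2%, and Rpl32, Adamts10, Ccnl2 and Serpina3c 0%. The 17 calls did not hold in edgeR under DESeq2 size factors or without most of the single libraries, as given in the next part. Technical or other sources of the difference were not tested.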

How the results depend on the processing

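Against 2724 calls (1444 higher, 1280 lower), the DESeq2 Wald test gave 4130 (2131 lower), and library totals alone gave 2194 higher and 792 lower. With a replicate block the counts were 1513, 819 and 694, and 1454 of the 1513 genes were also called without it. The labels do not say whether same-numbered SSC and OPC libraries came from the same mice. Deviations of same-numbered libraries from their group means had correlations of 0.0437, -0.0194 and -0.0273. These values cannot decide whether the libraries were paired, so the fit with the block is given beside the main fit. Leaving out 1 library gave 1290 to 3071 calls, 724 to 1651 higher and 561 to 1420 lower. DESeq2 size factors, upper-quartile scaling, both count filters, thinning, both fold thresholds, the fit of all 17 libraries, the bias-adjusted quasi-likelihood and, chosen after seeing the data, leaving out genes with copies (2307 calls) kept these 3 counts within 1.5 times. Of 248 genes taken by the naming rule or for their role, none that was called changed sign under any alternative; 42 lost their call with the replicate block and 70 without OPC replicate 2; the bias-adjusted test lost 6 (Col1a1, Col1a2, Sparc, Spp1, Gsn and Dcn), and Dcn had an adjusted p of 0.0509 with the replicate block in edgeR. The 17 differences between Cxcr4+/1013 and WT became 437 with DESeq2, 0 with DESeq2 size factors in edgeR, 0 with the bias-adjusted test, 0 with a replicate block and 0 to 13 without 1 library; the 0 against 1013/1013 became 224 with DESeq2 and 0 to 1276 without 1 library, 1276 without SSC 1013/1013 replicate 2, which leaves 1 library in that group. The causes were not tested. Depth was at least 48626392 counts per library, and the number of libraries limits the precision.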
